A study of Mus musculus with 6 samples.

Results

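A set of 32 genes that mark hematopoietic stem cells was followed in mouse bone marrow LSK cells with and without HDAC6. They were chosen by symbol as genes of stem cell identity, leaving out the sort markers, HOX genes and the core GATA and RUNX factors. Earlier results of these data were known at that choice, so shares of all genes given beside the members describe and do not test. All 32 were among the 16022 gene symbols of the count table, and 31 of them passed the filter on low counts together with 12875 genes in all. Tcf15, a basic helix-loop-helix factor tied to stem cell quiescence, was the member that did not pass, with 0, 1 and 0 reads in the 3 HDAC6 knockout libraries and 1, 3 and 7 reads in the 3 wild-type (WT) libraries.

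RNA was sequenced from bone marrow cells sorted as LSK (no lineage markers, high Sca-1, c-kit present), the fraction that holds stem cells and early progenitors. There were 3 libraries of HDAC6 knockout mice and 3 libraries of WT mice, with 25993971 to 28743672 counts per library. HDAC6 is a mainly cytoplasmic deacetylase. The labels give no allele, promoter, strain, age or treatment for either genotype, and do not say whether each library is a different mouse, so the p-values rest on differences among 6 libraries that may be technical.

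Stem cells are a small part of LSK cells, and most LSK cells are multipotent progenitors that have lost long-term repopulating ability. Stem cells are kept by a set of transcription factors, among them Mecom, Hlf and Prdm16, by receptors that read niche signals, such as the angiopoietin receptor Tek, and by programs that limit the cell cycle. In bulk libraries, fewer stem cells and less of a transcript per cell cannot be told apart.

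Hdac6 mRNA in CPM (counts scaled to a common library size) was 9.62, 7.69 and 11.3 in the 3 knockout libraries, replicates 1 to 3, against 68.0, 58.2 and 54.3 CPM in WT replicates 1, 2 and 3, with no overlap. The deleted exons are not named in the labels. Knockout replicate 3 nevertheless stood apart from the other knockout libraries over all genes. The chi-square per degree of freedom between libraries was 25.8 to 35.5 for knockout replicate 3 against the WT libraries and 53.8 to 58.4 for it against knockout replicates 2 and 1, which differed from each other by 45.3. Fold changes that a single library moved by more than 1.5 times are given without it as well, or as a range for Rbpms, Trim47 and Txnip, which lay near 0. Some smaller moves, to either side, are given too.

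Of the 31 tested members, 23 lay below WT, against 50.5% of all tested genes, and the median log2 fold change (knockout over WT) was -0.36, against 0.00 over all tested genes. In 8 members every knockout library lay below every WT library, where 9.7% of all tested genes showed that pattern, and in 1 member, Ctnnal1, every knockout library lay above, against 8.86% of all tested genes. In all, 14 members had a log2 fold change below -0.5, and 10.7% of all tested genes did, while 4 were above 0.5, against 8.22% of all tested genes. Of the members, 0 passed an adjusted p of 0.05 by the quasi-likelihood test of edgeR, where 0.00777% of all tested genes passed (1 gene, Hdac6 itself), and the members' adjusted p-values ran from 0.298 to 0.999. At an unadjusted p under 0.05 by edgeR there were 13 members on the lower side and 1 on the higher side, against 6.15% and 7.24% of all tested genes. DESeq2 called 0 members, against 0.456% of genes on the lower side and 0.897% on the higher side. The DESeq2 adjusted p-values of the 31 tested members ran from 0.0569 (Angpt1) to 0.994 (Rbpms).

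**Figure D1:**
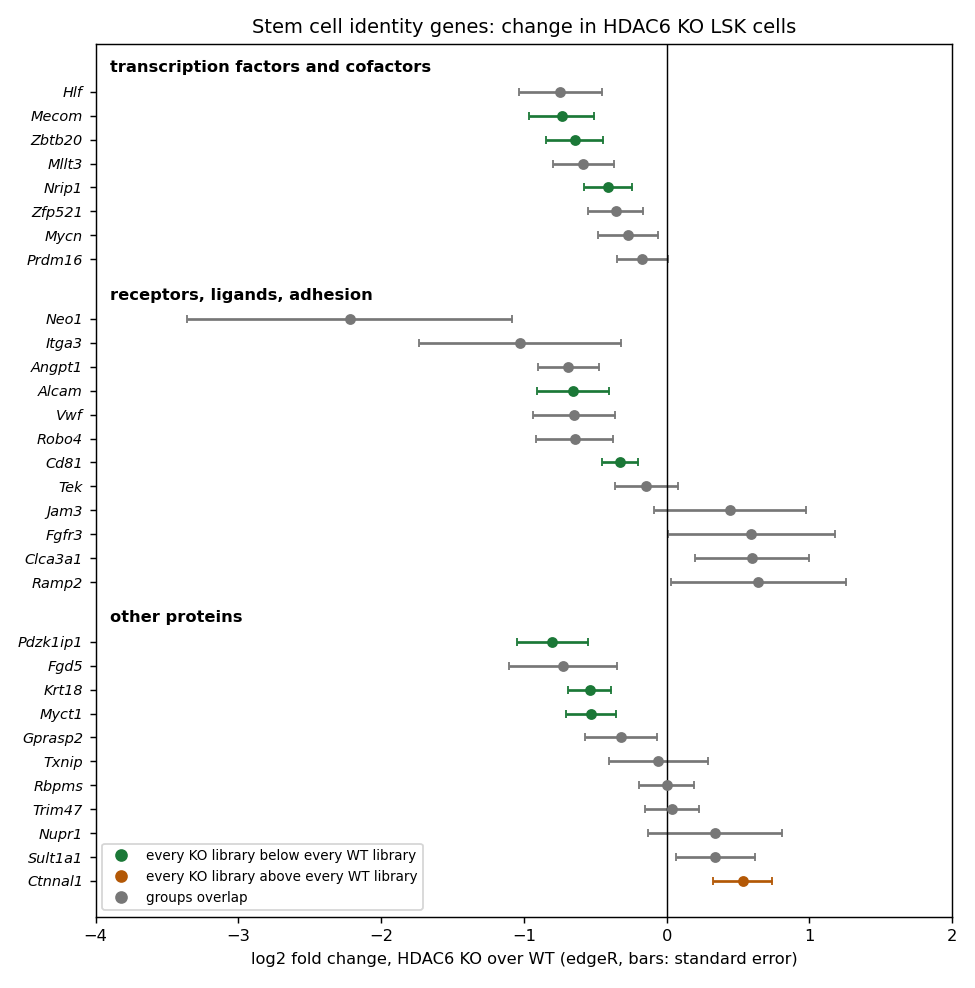
Log2 fold change (HDAC6 KO over WT, x axis) of the 31 tested members with its standard error from edgeR, grouped by role. Green points mark the 8 members whose knockout libraries all lay below the WT libraries, and all 8 factors at the top lie left of 0.

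The 4 members with the smallest p that have an entry in the RefSeq promoter table (build GRCm38.p6) are shown with 250 bases before and 50 bases after the annotated start, since they lead the members by p, though without passing the threshold. The submitters' notes name another build, GRCm39, so these positions belong to the sequence table and not to the count table. Capitals mark a match, on either strand, to one of 4 motifs that were searched: AGATAA for GATA factors, AGGAAG for ETS factors, TGTGGT for RUNX factors and CAGCTG for E-box factors. Mecom has 2 annotated starts, and the table of counts has 1 row for the whole gene, so transcripts from these starts were not separated.
Krt18 (chr15:102027966-102028265, plus strand): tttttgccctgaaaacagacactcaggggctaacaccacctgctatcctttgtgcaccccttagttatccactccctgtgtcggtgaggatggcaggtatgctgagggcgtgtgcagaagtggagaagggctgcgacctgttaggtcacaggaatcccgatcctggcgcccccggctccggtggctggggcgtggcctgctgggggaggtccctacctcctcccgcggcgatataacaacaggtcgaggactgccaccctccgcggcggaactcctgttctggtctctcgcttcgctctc
Mecom, upstream start (chr3:30509710-30510009, minus strand): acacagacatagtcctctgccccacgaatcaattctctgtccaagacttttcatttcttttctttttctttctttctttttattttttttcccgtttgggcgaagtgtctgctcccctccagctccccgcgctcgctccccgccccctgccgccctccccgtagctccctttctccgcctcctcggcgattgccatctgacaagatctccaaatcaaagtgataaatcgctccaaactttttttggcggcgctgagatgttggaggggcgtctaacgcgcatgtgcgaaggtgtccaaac
Mecom, downstream start (chr3:30013155-30013454, minus strand): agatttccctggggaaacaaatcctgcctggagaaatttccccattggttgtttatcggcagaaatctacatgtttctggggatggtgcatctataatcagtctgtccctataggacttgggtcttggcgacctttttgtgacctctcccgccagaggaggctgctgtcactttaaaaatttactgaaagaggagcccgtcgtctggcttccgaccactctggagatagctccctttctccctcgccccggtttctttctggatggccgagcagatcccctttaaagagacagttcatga
Zbtb20 (chr16:43247034-43247333, plus strand): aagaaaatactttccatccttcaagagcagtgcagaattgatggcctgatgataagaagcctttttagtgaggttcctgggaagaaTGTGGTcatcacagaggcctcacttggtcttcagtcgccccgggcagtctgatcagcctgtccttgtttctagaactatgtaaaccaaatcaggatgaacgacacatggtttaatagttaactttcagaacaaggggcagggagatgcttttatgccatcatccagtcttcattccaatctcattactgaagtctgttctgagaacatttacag
Pdzk1ip1 (chr4:115088458-115088757, plus strand): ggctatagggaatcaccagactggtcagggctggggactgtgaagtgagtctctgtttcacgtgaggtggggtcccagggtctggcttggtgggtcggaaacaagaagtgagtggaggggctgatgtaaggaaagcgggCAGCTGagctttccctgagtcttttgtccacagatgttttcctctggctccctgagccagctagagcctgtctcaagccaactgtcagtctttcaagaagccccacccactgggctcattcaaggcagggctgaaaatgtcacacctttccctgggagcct
Of these 5 sequences, Zbtb20 held 1 RUNX match and Pdzk1ip1 held 1 E-box match, and the others held none of the 4 motifs. Over the 30 promoter entries of 25 members, the GATA motif was in 6.67% of entries, against 11.2% of all 32851 promoters of the same length. The ETS motif was in 26.7% of the members' entries, against 35.4% of all promoters. The RUNX motif was in 6.67%, against 16.8%, and the E-box in 26.7%, against 16.3%. Matches describe letters in these windows only. The members Jam3, Ramp2, Zfp521, Rbpms, Tcf15, Angpt1 and Vwf had no matched entry.

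Length-scaled levels (the deposited FPKM) spanned a wide range across members. In WT libraries the tetraspanin gene Cd81 averaged 326 FPKM, Txnip 184 FPKM and Angpt1 148 FPKM, and these stood at 247, 170 and 88.1 FPKM on average in knockout libraries. At the other end, Neo1 averaged 0.0333 FPKM in knockout and 0.173 FPKM in WT libraries, and Tcf15 0.0167 FPKM in knockout and 0.190 FPKM in WT libraries. Between these, Krt18, Pdzk1ip1, Mycn and Hlf lay between 37.3 and 64.3 FPKM in WT and between 21.3 and 42.2 FPKM in the knockout, and Krt18 (56.8 to 70.2 FPKM) and Pdzk1ip1 (56.7 to 70.3 FPKM), neighbours in this order, spanned the same range of WT libraries.

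**Figure D2:**
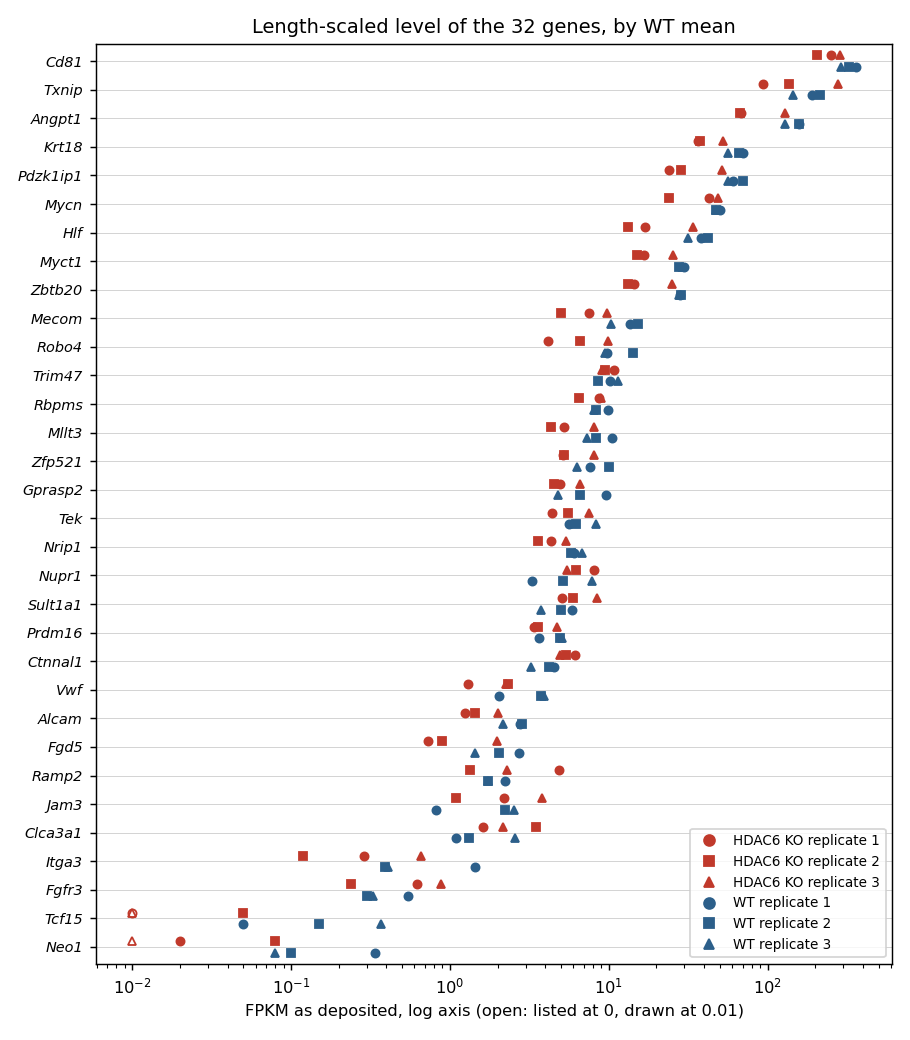
FPKM of all 32 genes in each library on a log axis, ordered by the WT mean, with HDAC6 KO libraries in red above WT libraries in blue. The order runs from Cd81 at the top to Neo1 and Tcf15 at the bottom, and open symbols are values listed at 0.

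The transcription factors and cofactors were the role group in which every tested member lay below WT. All 8 tested factors had a negative log2 fold change, against 50.5% of all tested genes. Their median was -0.50, with a range of -0.75 to -0.17 and 0 past the edgeR threshold. In 3 of them, Mecom, Zbtb20 and Nrip1, the groups did not overlap, where 9.7% of all tested genes were lower without overlap. In each of the 8 the highest knockout value was that of replicate 3, against 37.9% of all tested genes.

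Mecom, a zinc finger factor needed to maintain long-term stem cells, measured 37.6, 24.8 and 46.3 CPM in the knockout, replicates 1 to 3 in that order as in all such values, against 65.1, 68.9 and 47.1 CPM in WT. The groups did not overlap, but the highest knockout value and the lowest WT value were close. The log2 fold change was -0.74 (SE 0.23, edgeR adjusted p = 0.306), and -0.95 without knockout replicate 3 or -0.52 without knockout replicate 2. Mecom has an antisense partner, Mecomos, whose exons overlap it in the GENCODE annotation, and the sources used here do not give the strand setting of the counting.

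Hlf, a leucine zipper factor that holds stem cells in quiescence, stood at 89.5, 68.4 and 169 CPM in the knockout, against 187, 204 and 157 CPM in WT. Knockout replicate 3 lay within the WT range and the other knockout libraries well below it. The log2 fold change was -0.75 (SE 0.29, edgeR adjusted p = 0.341), and without knockout replicate 3 it was -1.21 with an edgeR adjusted p of 0.0375. It was -0.50 without knockout replicate 2 (edgeR adjusted p = 0.744) and -0.62 without knockout replicate 1 (edgeR adjusted p = 0.672).

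Zbtb20, a zinc finger repressor, stood at 77.7, 71.7 and 129 CPM in the knockout, against 136, 153 and 146 CPM in WT. All knockout libraries lay below all WT libraries, with replicate 3 nearest to WT. The log2 fold change was -0.64 (SE 0.20, edgeR adjusted p = 0.306), and -0.95 without knockout replicate 3 (adjusted p = 0.0375). It was -0.49 without knockout replicate 2 (edgeR adjusted p = 0.744) and -0.53 without knockout replicate 1 (edgeR adjusted p = 0.647).

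Mllt3, a subunit of elongation complexes known in human stem cells to sustain self-renewal in culture, stood at 23.7, 23.2 and 38.9 CPM in the knockout, against 49.4, 40.9 and 38.4 CPM in WT, so that knockout replicate 3 was just above WT replicate 3. Its log2 fold change was -0.58 (SE 0.22, edgeR adjusted p = 0.325), and -0.87 without knockout replicate 3 or -0.45 without knockout replicate 2. Nrip1, a corepressor of nuclear receptors, stood at 61.7, 50.3 and 78.0 CPM in the knockout, against 78.9, 78.3 and 96.0 CPM in WT. The groups did not overlap, by a narrow margin, with a log2 fold change of -0.41 (SE 0.17) that was -0.27 without knockout replicate 2.

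Zfp521, a zinc finger cofactor of early progenitors, averaged 43.8 ± 9.43 CPM in the knockout and 56.1 ± 11.4 CPM in WT (SD, n = 3 each). Mycn, a MYC family factor, averaged 93.1 ± 29.8 CPM in the knockout and 112 ± 3.50 CPM in WT, and knockout replicate 2 was its low library, at 59.0 CPM against 106 and 114 CPM in replicates 1 and 3. Prdm16, a relative of Mecom that maintains stem cells, averaged 33.1 ± 4.76 CPM in the knockout and 37.2 ± 6.51 CPM in WT. The groups overlapped in these 3 genes. The log2 fold change of Zfp521 was -0.36, and -0.55 without knockout replicate 3 or -0.18 without WT replicate 2. That of Mycn was -0.27, and -0.03 without knockout replicate 2 or -0.44 without replicate 3. That of Prdm16 was -0.17, and it lay between -0.31 (without WT replicate 1) and -0.07 (without WT replicate 3) with other libraries left out, at -0.29 without knockout replicate 3 and -0.10 without knockout replicate 1.

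**Figure D3:**
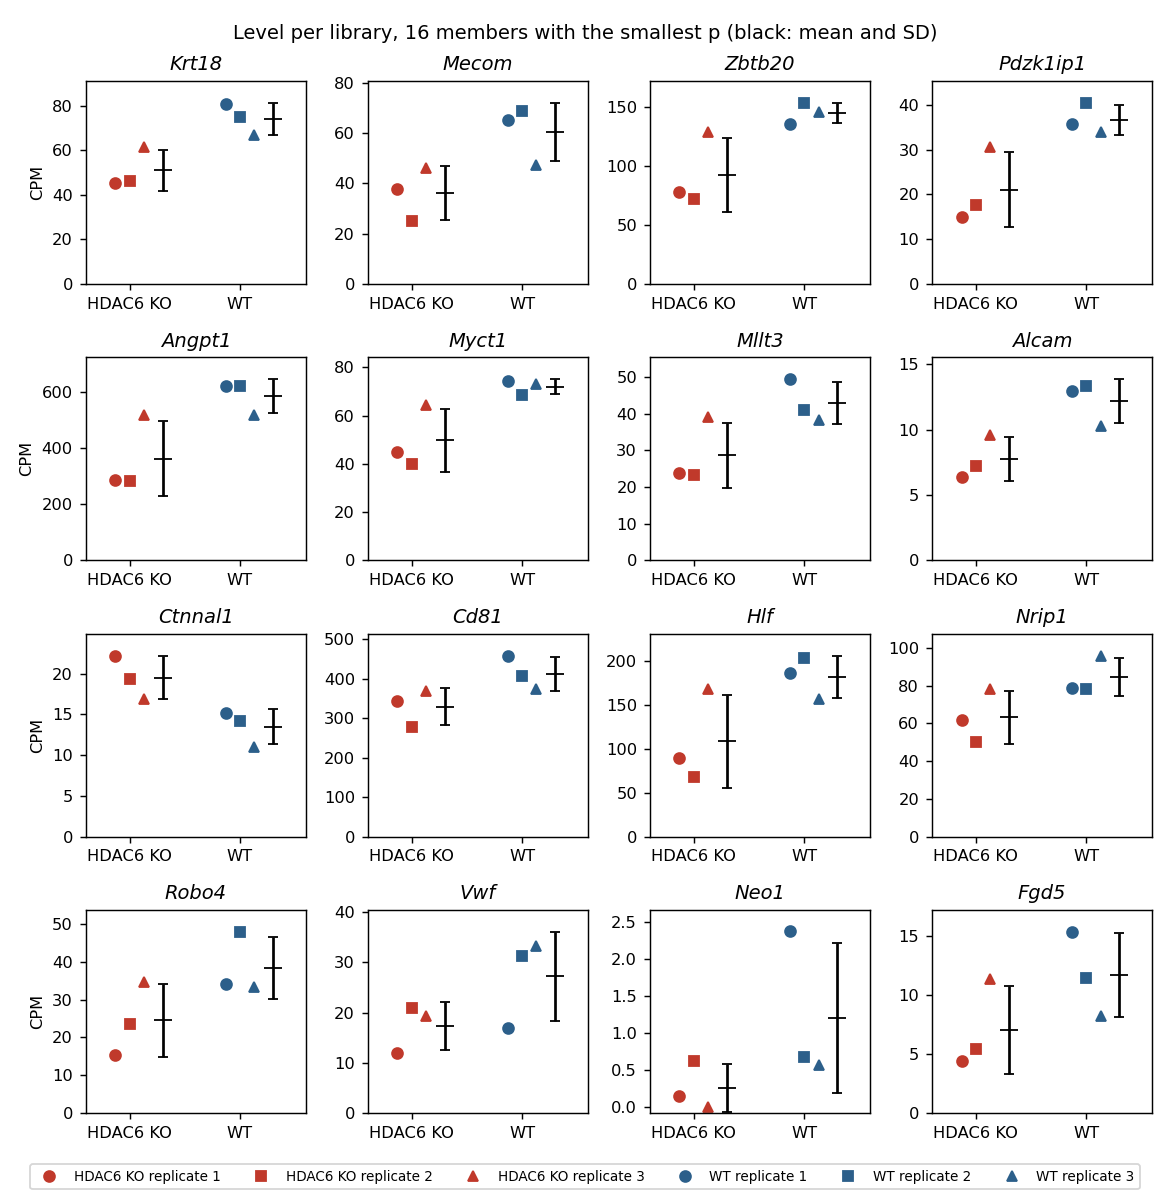
CPM in each library of the 16 members with the smallest p, with HDAC6 KO left of WT and the mean and SD in black. Knockout replicate 3, the red triangle, is the highest knockout library in most panels, for example for Hlf at 169 CPM and Angpt1 at 518 CPM.

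Among receptors, ligands and adhesion molecules, 8 of 12 members lay below WT and 4 above it. The median log2 fold change was -0.49, the range -2.22 to 0.64, and 0 passed the edgeR threshold. In Alcam and Cd81 the groups did not overlap, with the knockout lower. Of all tested genes, 50.5% lay below WT and 9.7% were lower without overlap.

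The angiopoietin ligand and its receptor are both members. Angpt1, which encodes the ligand, stood at 288, 284 and 518 CPM in the knockout, against 621, 621 and 517 CPM in WT. Knockout replicate 3 was level with WT replicate 3, and the other knockout libraries lay far below all WT libraries. Its log2 fold change was -0.69 (SE 0.21, edgeR adjusted p = 0.306), and -1.04 without knockout replicate 3 (adjusted p = 0.0236). It was -0.54 without knockout replicate 2 (edgeR adjusted p = 0.744) and -0.55 without knockout replicate 1 (edgeR adjusted p = 0.631). Tek, the receptor, averaged 26.7 ± 6.32 CPM in the knockout and 29.5 ± 6.49 CPM in WT (SD, n = 3 each), with overlapping groups and a log2 fold change of -0.14 (SE 0.22). Without knockout replicate 1 it was 0.01, without WT replicate 3 it was 0.06, without knockout replicate 3 it was -0.33 and without WT replicate 1 it was -0.26. The difference between ligand and receptor was not tested. Angpt1 shares exons with the antisense gene Gm17473 in the annotation.

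Robo4, a guidance receptor used in homing to the marrow, stood at 15.5, 23.6 and 34.6 CPM in the knockout, against 34.1, 48.0 and 33.2 CPM in WT. Only knockout replicate 3 reached the WT range. Vwf, von Willebrand factor, which marks platelet-biased stem cells, stood at 11.9, 20.9 and 19.2 CPM in the knockout, against 17.0, 31.2 and 33.3 CPM in WT. Here WT replicate 1 lay among the knockout values. The log2 fold changes were -0.65 (SE 0.27) for Robo4 and -0.65 (SE 0.29) for Vwf, with edgeR adjusted p of 0.355 and 0.369. Robo4 was at -0.98 without knockout replicate 3 (edgeR adjusted p = 0.0929) and at -0.40 without knockout replicate 1 (edgeR adjusted p = 0.712).

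Alcam, an immunoglobulin-type adhesion molecule, stood at 6.35, 7.25 and 9.61 CPM in the knockout, against 12.9, 13.4 and 10.3 CPM in WT, with groups that did not overlap (log2 fold change -0.66, SE 0.25). Cd81, a tetraspanin, stood at 343, 277 and 368 CPM in the knockout, against 459, 408 and 373 CPM in WT. Its groups did not overlap either, with a log2 fold change of -0.33 (SE 0.13). The counts of Cd81 were not whole numbers in any library, as were those of Clca3a1, Gprasp2 and Sult1a1, so the levels of these 4 members can depend on how shared reads were counted. In the annotation, exons of Zbtb20, Cd81, Clca3a1, Sult1a1, Fgfr3, Prdm16 and Jam3 overlap an opposite-strand gene, and those of Gprasp2, Trim47 and Ramp2 a gene on the same strand, so these levels are uncertain in the same way.

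The low members of this group went both ways and rested on few reads. Neo1, a receptor of netrins and repulsive guidance molecules, stood at 0.147, 0.616 and 0 CPM in the knockout, against 2.37, 0.672 and 0.568 CPM in WT. No read was counted in knockout replicate 3, where 3 reads would be 0.109 CPM, and WT replicate 1 alone was far above the others. Its log2 fold change of -2.22 (SE 1.14) was the largest among the members, and it was -3.96 without knockout replicate 2 and -1.27 without WT replicate 1. Itga3, the integrin alpha 3 chain, stood at 1.40, 0.544 and 3.01 CPM in the knockout, against 6.46, 1.73 and 1.89 CPM in WT. WT replicate 1 was again the high library, and the log2 fold change of -1.03 (SE 0.71) was -0.13 without it, -0.61 without knockout replicate 2 and -1.79 without knockout replicate 3.

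Ramp2, a partner of the calcitonin receptor-like receptor, had a log2 fold change of 0.64, Clca3a1, of the calcium-activated chloride channel regulator family, of 0.60, the growth factor receptor gene Fgfr3 of 0.59 and Jam3, a junctional adhesion molecule, of 0.44. The groups overlapped in all 4. Ramp2 was high in knockout replicate 1 only, at 3.34 CPM against 0.906 and 1.49 CPM in knockout replicates 2 and 3 and 1.10 to 1.44 CPM in WT, and without that library its log2 fold change was -0.03 (0.98 without knockout replicate 2). Jam3 was highest in knockout replicate 3, at 6.64 CPM, and its log2 fold change was -0.05 without it, 0.09 without WT replicate 1, and 0.79 without knockout replicate 2 or WT replicate 3. Clca3a1 was at 0.21 without knockout replicate 2, 0.37 without WT replicate 1 and 1.07 without WT replicate 3. Fgfr3 was at 0.19 without knockout replicate 3, 0.96 without knockout replicate 2 and 0.89 without WT replicate 1.

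Endothelial cells express several of these members as well, such as Tek, Robo4 and Vwf. Cdh5, a defining endothelial gene, was at 0 to 0.145 CPM in knockout libraries and 0 to 0.215 CPM in WT libraries, and Kdr at 0 to 1.23 CPM in knockout and 0 to 1.74 CPM in WT libraries. Of the 12 endothelial genes examined, 10 were tested, of which 7 lay below WT. The median of their log2 fold changes was -0.07, with summed levels of 361 to 432 CPM in the knockout and 378 to 437 CPM in WT, most of it from Egfl7, Pecam1 and Tie1, which blood progenitors also express.

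Of the 11 remaining members, with roles in signalling, metabolism, the cytoskeleton and stress, 7 lay below WT and 4 above. The median log2 fold change was -0.06, and 0 passed the edgeR threshold. The groups did not overlap in Pdzk1ip1, Krt18 and Myct1, which were lower, and in Ctnnal1, which was higher. Of all tested genes, 50.5% lay below WT, 9.7% were lower without overlap and 8.86% were higher without overlap.

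Pdzk1ip1, a small membrane protein with a PDZ-binding end, stood at 15.0, 17.6 and 30.6 CPM in the knockout, against 35.6, 40.5 and 34.0 CPM in WT. All knockout libraries were below WT, with replicate 3 the nearest. The log2 fold change was -0.80 (SE 0.25, edgeR adjusted p = 0.306), and -1.17 without knockout replicate 3 (adjusted p = 0.0472). It was -0.61 without knockout replicate 1 (edgeR adjusted p = 0.636) and -0.69 without knockout replicate 2 (edgeR adjusted p = 0.744). Krt18, an intermediate filament gene and the member with the smallest p, stood at 45.2, 46.2 and 61.7 CPM in the knockout, against 81.0, 74.8 and 66.7 CPM in WT, with a log2 fold change of -0.54 (SE 0.15, edgeR adjusted p = 0.298).

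Myct1, known as a target of MYC and for its part in stem cell function, stood at 45.0, 39.9 and 64.5 CPM in the knockout, against 74.5, 68.6 and 73.0 CPM in WT, without overlap (log2 fold change -0.53, SE 0.17). Fgd5, an exchange factor whose locus is used to mark stem cells in reporter mice, stood at 4.44, 5.40 and 11.3 CPM in the knockout, against 15.3, 11.4 and 8.25 CPM in WT. Knockout replicate 3 lay inside the WT range, and the log2 fold change of -0.73 (SE 0.38) was -1.24 without that library and -0.48 without knockout replicate 1 or WT replicate 1.

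Ctnnal1, alpha-catulin, is likewise used as a stem cell reporter locus, and it lay on the other side from Fgd5. It stood at 22.2, 19.4 and 16.9 CPM in the knockout, against 15.2, 14.2 and 11.1 CPM in WT. All knockout libraries were above all WT libraries, with replicate 3 the nearest to WT, and the log2 fold change was 0.53 (SE 0.21, edgeR adjusted p = 0.334).

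Txnip, an inhibitor of thioredoxin and of glucose uptake, varied widely between knockout libraries. It stood at 255 CPM in knockout replicate 1, 366 in replicate 2 and 714 in replicate 3, against 371 to 537 CPM in WT, so the knockout values lay on both sides of WT. Its log2 fold change of -0.06 (SE 0.35) changed to 0.22 when knockout replicate 1 was left out, to -0.58 when replicate 3 was and to -0.19 when WT replicate 3 was. Txnip shares exons with the antisense gene Gm15441 in the annotation. Gprasp2, which sorts receptors to the lysosome, had a log2 fold change of -0.32, Sult1a1, a sulfotransferase, of 0.34, Nupr1, a nuclear stress protein, of 0.34, Trim47, a ubiquitin ligase, of 0.04, and Rbpms, an RNA-binding protein, of 0.00, all with overlapping groups. Gprasp2 was at -0.02 without WT replicate 1 and -0.52 without WT replicate 3, and Sult1a1 at 0.15 without knockout replicate 3. Nupr1 was at 0.14 without knockout replicate 1, 0.08 without WT replicate 1 and 0.74 without WT replicate 3.

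**Figure D4:**
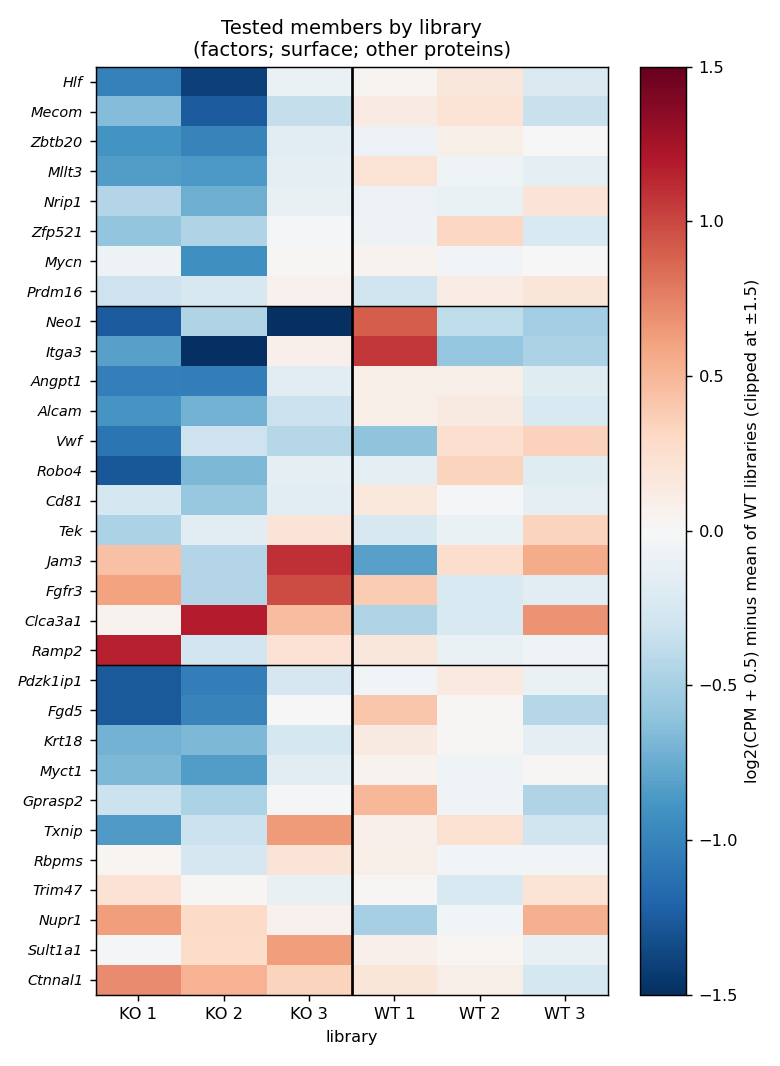
Each tested member in each library, as log2(CPM + 0.5) minus the mean of the WT libraries, with HDAC6 KO columns left of WT columns. Blue fills most rows in knockout replicates 1 and 2, where 21 of 31 members lay below every WT library in each, and is paler in knockout replicate 3, where 9 did.

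The knockout libraries were thus not alike for these genes. In knockout replicates 1 and 2, 21 of 31 members lay below every WT library in each, against 30.1% and 29.7% of all tested genes. In knockout replicate 3 it was 9 members, against 21.6% of all tested genes, while 15 lay within the WT range and 7 above it, where 22.4% of all tested genes lay above. The mean log2 level of the tested members, relative to the mean of all 6 libraries, was -0.27, -0.36 and 0.17 in knockout replicates 1, 2 and 3, against 0.20, 0.16 and 0.10 in WT replicates 1, 2 and 3. Knockout replicate 3 lay within the WT values.

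Replicate 3 was the highest knockout library in 24 of 31 members, against 37.9% of all tested genes. In 9 members, replicates 1 and 2 lay below every WT library and replicate 3 did not, a pattern in 10.5% of all tested genes. The coefficient of variation was larger in the knockout than in WT in 23 of 31 members, against 47.2% of all tested genes, with medians over members of 29.7% in the knockout and 16% in WT.

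Without knockout replicate 3, with 2 knockout libraries left, edgeR called 4 members, against 0.335% of 13125 genes tested. These were Angpt1, Hlf, Zbtb20 and Pdzk1ip1, all lower, and the median log2 fold change over members was -0.58. Without knockout replicate 1 or 2 the members' median was -0.38 or -0.27, and 0 members were called.

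The members were also split by level. Of the 25 members with a mean of at least 5 CPM over all libraries, 21 lay below WT (median -0.41 on the log2 scale), where 48.4% of all genes at that level lay below WT. Of the 6 tested members under 5 CPM, 2 lay below WT, where 58.4% of all tested genes at that level did.

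Other gene lists varied between the same libraries. Genes of G2 and mitosis lay above WT in 19 of 20 members of their list, with a median of 0.33 (log2) and 11 without overlap on the higher side, against 8.86% of all tested genes. DESeq2 called Ccna2 and Plk1 of this list higher, and edgeR called 0. Their summed level was 3680 to 4760 CPM in knockout and 3230 to 3550 CPM in WT libraries, and their mean log2 level was 0.35, 0.15 and -0.02 in knockout replicates 1, 2 and 3, against -0.24 to -0.12 in WT. Myeloid priming genes lay above WT in 13 of 14 (median 0.80), with a summed level of 6350 to 18600 CPM in the knockout and 5550 to 8460 CPM in WT. Knockout replicate 2 stood apart at a mean log2 level of 1.14. Knockout replicates 1 and 3, at -0.06 and -0.18, lay within the WT values of -0.53 to 0.01. Megakaryocyte genes lay below WT in 7 of 11 tested (median -0.28), with summed levels of 573 to 850 CPM in the knockout and 854 to 1010 CPM in WT. Their part in the members' result was not tested.

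**Figure D5:**
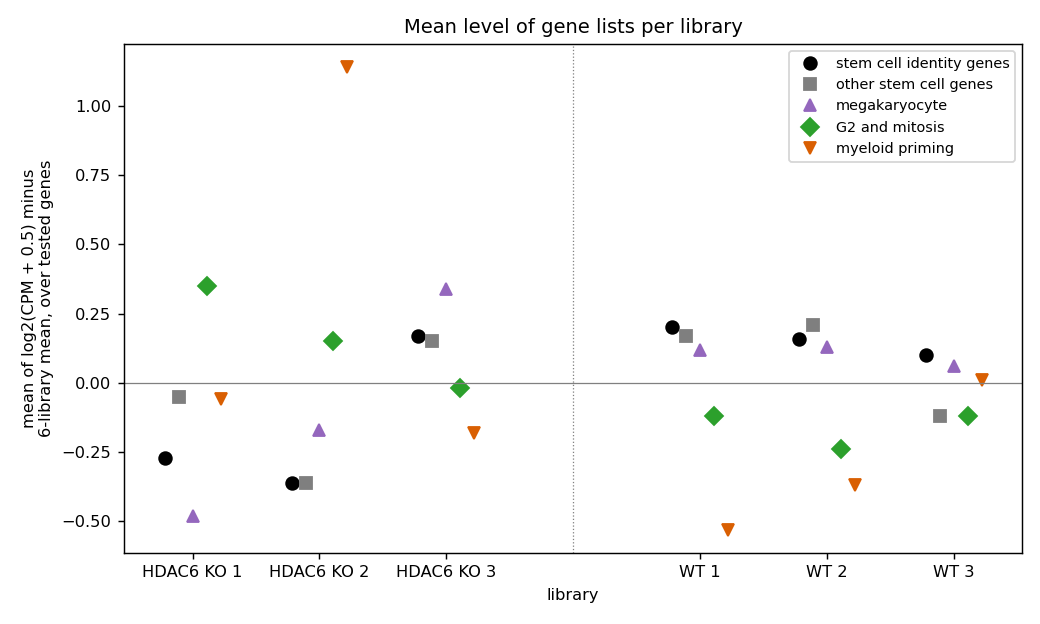
Mean of log2(CPM + 0.5) relative to the 6-library mean over the tested genes of 5 lists, with HDAC6 KO libraries left of WT libraries. The stem cell identity genes (black) lie at -0.27 and -0.36 in knockout replicates 1 and 2 and at 0.17 in replicate 3, while WT libraries lie at 0.10 to 0.20.

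Mature cell markers were at low summed levels, and some lists moved with the groups. Of 9 tested neutrophil granule genes 8 lay below WT (median -1.39, log2), and DESeq2 called 3 of them lower. They summed to 12.4 to 28.9 CPM in knockout and 39.6 to 107 CPM in WT libraries. Of 9 tested T and natural killer genes 8 lay above WT (median 2.25), and DESeq2 called Il2rb, Cd7, Gzma and Ncr1 higher. They summed to 74.5 to 142 CPM in the knockout and 79.6 to 92.6 CPM in WT, a sum led by Lck, which averaged 49.6 CPM in the knockout and 66.2 CPM in WT. In both lists edgeR called 0. B cell genes summed to 66.7 to 101 CPM in the knockout and 57.7 to 90.7 CPM in WT, and macrophage genes to 72.6 to 99.2 CPM in the knockout and 75.4 to 99.0 CPM in WT. The bone gene Bglap had no count in any library. Depth was higher in knockout replicates 1 and 2 than in any WT library, and knockout replicate 3 lay within the WT range. There were 27253030 to 28743672 counts in knockout and 25993971 to 27371323 counts in WT libraries. The TMM factors were 0.952, 0.960 and 1.012 in knockout replicates 1, 2 and 3, against 1.017 to 1.034 in WT. The part of these in the members' result was not tested.

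The surface proteins of the sort gate, c-kit and Sca-1, went opposite ways at the RNA level, with groups that did not overlap in either. Of all tested genes, 9.7% were lower without overlap and 8.86% were higher without overlap. Kit, the c-kit receptor, stood at 725, 817 and 1082 CPM in the knockout, against 1323, 1367 and 1127 CPM in WT. Ly6a, which encodes Sca-1, stood at 82.1, 119 and 119 CPM in the knockout, against 60.3, 68.7 and 66.3 CPM in WT. Ptprc, the gene of CD45, which the labels do not name in the sort, averaged 373 CPM in the knockout and 418 CPM in WT, with overlap. The log2 fold changes were -0.54 (SE 0.15), 0.71 (SE 0.16) and -0.16 (SE 0.12), and none of the 3 passed the edgeR threshold. DESeq2 called Kit lower (adjusted p = 0.0471) and Ly6a higher (adjusted p = 0.00718).

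A list of 30 further genes enriched in stem cells was examined beside the members. Of these, 28 were in the table and 26 were tested. They lay below WT in 18 (median -0.25, log2), and 0 passed the edgeR threshold in either direction. Mmrn1, a multimerin gene of stem cells and megakaryocytes, stood at 47.1, 40.0 and 79.6 CPM in the knockout, against 135, 139 and 80.7 CPM in WT, a log2 fold change of -1.09 (SE 0.28) that DESeq2 called (adjusted p = 0.00718). The interferon-induced gene Ifitm3 lay on the other side without overlap (log2 fold change 0.35, SE 0.09), against 8.86% of all tested genes. The GATA factor gene Gata3 was at -0.61 (SE 0.22), lower without overlap, against 9.7% of all tested genes. Procr and Slamf1, whose products are used to sort stem cells, had log2 fold changes of -0.39 (SE 0.24) and 0.08 (SE 0.51). Their groups overlapped.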

How the data were processed

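The authors deposited 1 table that gives, for each gene symbol and library, estimated counts and FPKM, per the file headers. Per the submitters' processing notes, featureCounts 2.0.3, HISAT2 2.2.1, SAMtools 1.13, DESeq2 and the build GRCm39 were used, with roles not given in the sources used here, like the annotation, strand setting and treatment of shared reads. Between 19.6% and 20.9% of the deposited counts per library were not whole and were rounded. Members, lists and tests were chosen with earlier results of these data known. Knockout was compared with WT by edgeR 4.0.16 in R 4.3.3 (filterByExpr with its minimum count of 10, TMM, robust quasi-likelihood test, Benjamini-Hochberg over 12875 genes, threshold 0.05). The test was checked on simulated counts. To pass this check, only changes larger than those of most members had to be recovered. How often changes of the members' size would be called is not given here. The SE was taken from the fold change and the F statistic. CPM values use TMM, and FPKM served for levels between genes and for 1 alternative. Per-library means use log2(CPM + 0.5). Per-library values are given for the 16 members with the smallest p. Of other lists, genes were named by smallest p or as defining markers, and Procr, Slamf1, Egfl7 and Pecam1, like single library values of other members, were chosen after their values were seen. Items that this rule selects from the other lists are in part not reported here. Chi-square per degree of freedom between library pairs was at least 25.8, so each library counted as 1 sample. At a count of 0, the limit is 3 counts, 0.106 to 0.114 CPM, which covers counting error only. Alternatives were other scalings and filters, DESeq2 1.42.0, limma 3.58.1 (voom with sample weights, and log2(FPKM + 1)), other dispersion options, the replicate number as a block and each library left out. GENCODE M21 (GRCm38) served for overlapping genes by name, and RefSeq for promoters.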

Additional observations from a re-analysis of the deposited data

How the results depend on the processing

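With other scalings, filters and tests on all 6 libraries, 0 members were called, and 22 to 24 of the tested members lay below WT, or 21 of 25 with the stricter filter. Their median log2 fold change was -0.43 with library size alone, -0.42 with the stricter filter of 5 CPM in 3 libraries and -0.52 with limma-voom and sample weights, and with single libraries left out it ran from -0.58 to -0.27. The count of members called ran from 0 to 4 with single libraries left out, and 4 came only without knockout replicate 3. Over all genes DESeq2 called 181, against 1 by edgeR, and with single libraries left out edgeR called 1 to 44. Members near 0 changed sign: Rbpms was at 0.00 with RLE factors, 0.02 with no filter and 0.01 by DESeq2, and Trim47 was at -0.01 with upper-quartile factors, -0.04 with library size alone and -0.03 on log2(FPKM + 1). With single libraries left out, Rbpms ran from -0.11 to 0.12, Trim47 from -0.07 to 0.16, Txnip from -0.58 to 0.22, Tek from -0.33 to 0.06, Ramp2 from -0.03 to 0.98 and Jam3 from -0.05 to 0.79. The causes were not tested. Same-numbered libraries of the 2 groups did not deviate together (correlations of 0.06, -0.06 and -0.17), so the numbers were not taken as pairs. With the replicate block 0 members and 1 gene were called, 23 members lay below WT and the median was -0.36. Not every library correlated best with its own number. The 6 tested members under 5 CPM had the largest SEs among the members, from 0.47 to 1.14. The part of depth and of spread between libraries in these SEs was not tested.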

Other observations

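Surface genes that subdivide LSK cells also differed in direction. Cd48, which marks progenitors more than stem cells, stood at 336, 302 and 241 CPM in the knockout, against 180, 231 and 233 CPM in WT, without overlap. Cd34 stood at 1491, 1360 and 1647 CPM in the knockout, against 1821, 1755 and 1729 CPM in WT, without overlap. Of all tested genes, 8.86% were higher without overlap and 9.7% were lower without overlap. The log2 fold changes were 0.45 (SE 0.15) for Cd48 and -0.24 (SE 0.10) for Cd34, with edgeR adjusted p of 0.307 and 0.344. The list of 12 multipotent progenitor genes, which holds both Cd48 and Cd34, lay below WT in 9 (median -0.18, log2). Of 12 tested erythroid priming genes 7 lay above WT (median 0.36), and DESeq2 called Tfrc and Car1 higher. Their summed level, led by Car2, was 1040 to 1490 CPM in the knockout and 1190 to 1720 CPM in WT. All 7 mast cell and basophil genes lay above WT (median 0.74), DESeq2 called Fcer1a and Mcpt8 higher, and they summed to 291 to 453 CPM in the knockout and 252 to 323 CPM in WT. In both lists edgeR called 0.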
